A study of Mus musculus with 18 samples.

Results

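The response of mouse aortic smooth muscle cells to transforming growth factor β (TGF-β) was compared between cells that had received an siRNA against Itgav and cells that had received a scramble siRNA. The quantity described is the interaction, the log2 change with TGF-β in Itgav siRNA cells minus that in scramble cells. Every gene with enough counts was a member, which left 15832 of the 57180 genes in the deposited table, measured in 12 of the 18 libraries. The 4 groups were scramble siRNA without a stimulus, scramble siRNA with TGF-β, Itgav siRNA without a stimulus and Itgav siRNA with TGF-β, with 3 libraries each. All were bulk RNA libraries of smooth muscle cells from the thoracic aorta of C57BL/6 mice, and all cells had been transfected with one siRNA or the other. The remaining 6 libraries, from cells given PDGF-BB, entered the fit only for its estimate of the spread. The sources used here do not give the TGF-β isoform, its dose and time, the siRNA sequence, the number of animals or the passage. No label says that the replicates came from separate cultures or animals. Each p-value therefore sets a difference between groups against the spread of libraries within groups, and that spread may be only technical.

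Itgav encodes integrin αV, a chain that pairs with several β chains to bind matrix proteins carrying an RGD motif, among them the latent forms of TGF-β, which it helps to release in active form. Active TGF-β binds a pair of receptor kinases that phosphorylate receptor-regulated SMAD proteins, and in aortic smooth muscle this pathway is known for raising contractile proteins, collagens and elastin and for slowing division. The series title places the receptor in the setting of aortic aneurysm and dissection. The interaction asks whether cells given the Itgav siRNA answered added TGF-β in the same way as cells given the scramble siRNA. Effects of depleting Itgav and other effects of the siRNA cannot be told apart in these groups.

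The 12 libraries held 18139857 to 21592916 counts. Values are CPM, counts scaled to a library total of 1000000 after edgeR's TMM factors. An error after a log2 value is a standard error, with 3 libraries in each group, and a gene is called at an adjusted p under 0.05 in edgeR's quasi-likelihood test with Benjamini-Hochberg adjustment over all 15832 genes. Itgav was depleted in both media, at 14.8, 14.1 and 16.4 CPM in unstimulated and 26.1, 29.7 and 25.3 CPM in TGF-β-treated siRNA libraries, against 300.2, 326 and 323 CPM and 548, 553 and 472 CPM with the scramble siRNA. TGF-β raised the transcript in both, by 0.73 and 0.84 on the log2 scale, and its interaction of 0.11 ± 0.12 did not pass (edgeR adjusted p = 0.58, 95% interval -0.15 to 0.37). All 10 smooth muscle markers were detected, although Myh11, Cnn1 and Des stood at only 22.9, 18.5 and 8.57 CPM in unstimulated scramble cells. Summed mesothelial markers ran from 157 to 168 CPM in unstimulated and 63.9 to 66.5 CPM in TGF-β-treated scramble libraries, and from 95 to 97.1 CPM and 28.6 to 33.7 CPM with the siRNA, with 2 of the 7 tested called for the interaction, both negative, beside 23.2% of all genes. Adventitial fibroblast markers summed to 809 to 1070 CPM, with 2 of 10 called positive and 4 negative. Of that sum Gsn alone held group means of 705 to 894 CPM. Endothelial markers summed to 86.1 to 139 CPM, with 1 of 10 positive. Of 10 smooth muscle markers 1 was positive and 3 negative, of 5 macrophage markers tested 1 was positive, of 3 Schwann cell markers 2 and of 2 cardiomyocyte markers 1. The part of these markers in the results was not tested. Macrophage markers summed to between 9.25 and 21.2 CPM, lymphocyte markers stayed at or under 1.6 CPM, and Cd3e, Plin1 and Cidec were at 0 in all 12 libraries. In bulk samples, fewer cells of a type and less RNA per cell cannot be told apart.

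The siRNA changed the TGF-β response of 3678 genes, 23.2% of those tested. The interaction was positive for 1933 (12.2%) and negative for 1745 (11%), and at least 2-fold for 354 and 362 of them, while the median over all genes was 0.0025. TGF-β alone changed 7639 genes (48.3%) in scramble cells and 9101 (57.5%) in siRNA cells, and both comparisons share their libraries with the interaction. Responses were more often enlarged than blunted: 871 inductions (5.5% of genes tested) were larger in siRNA cells, 328 (2.07%) were smaller and 94 (0.594%) were turned into falls. Of the repressions, 770 (4.86%) were enlarged, 365 (2.31%) blunted and 102 (0.644%) turned into rises. A further 576 genes (3.64%) rose and 531 (3.35%) fell in siRNA cells without a call in scramble cells, and 41 were called for the interaction alone.

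Typical sizes differed between these classes. The median log2 TGF-β effect went from 0.54 in scramble to 1.03 in siRNA cells for enlarged inductions and from -0.55 to -1.14 for enlarged repressions. For blunted inductions it went from 0.56 to 0.06, with 208 of the 328 no longer called in siRNA cells, and for blunted repressions from -0.81 to -0.21, with 189 of 365 no longer called. Reversed inductions moved from 0.28 to -0.43 and reversed repressions from -0.39 to 0.37, so the typical reversal was between small effects. These classes rest on the same scramble libraries that enter the interaction, which raises the share of blunted among genes chosen for their scramble response and the share of enlarged among genes chosen in siRNA cells. Chosen by a scramble induction of at least 2-fold, 870 genes had medians of 1.64 and 1.78, with 221 enlarged, 88 blunted and 6 reversed. Chosen the same way, 1076 repressions had medians of -1.48 and -1.45, with 186 enlarged, 153 blunted and 14 reversed. Of the 555 inductions of that size without a call, 111 had a 95% interval of the interaction inside 1.5-fold in either direction, and for the others the interval reached past that size.

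**Figure D1:**
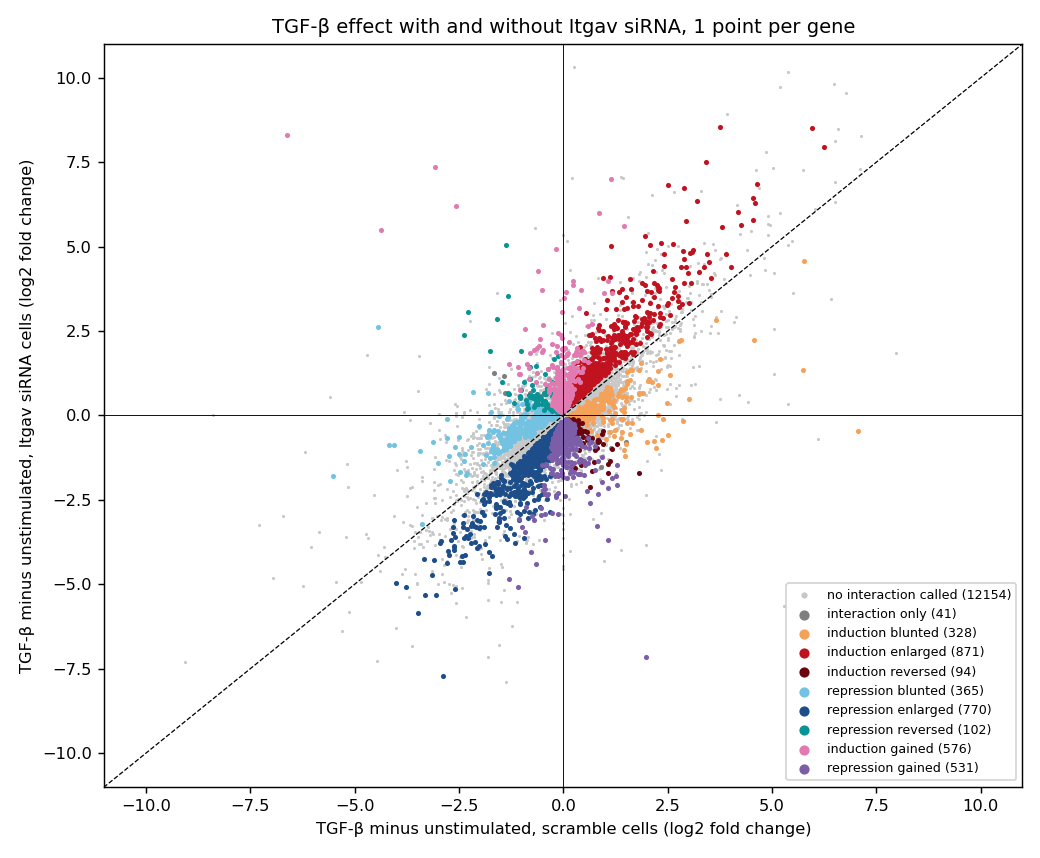
Log2 change with TGF-β in scramble cells (horizontal axis) and in Itgav siRNA cells (vertical axis) for each of the 15832 genes tested, coloured by class, with the dashed line marking equal effects. The 871 enlarged inductions lie above the line at the upper right and the 770 enlarged repressions below it at the lower left.

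A difference between the responses can arise where the siRNA moved a gene before TGF-β, after it, or both. The interaction also equals the siRNA effect under TGF-β minus that in unstimulated cells. The directions seen within a class are therefore fixed in part by how the class was chosen, and the counts below describe only the split. Among enlarged inductions, the siRNA lowered 487 of 871 in unstimulated cells and raised 501 under TGF-β. In 127 of them it did both in opposite directions, in 197 only the unstimulated level moved and in 221 only the level under TGF-β. Enlarged repressions showed the mirror image, with 428 of 770 higher in unstimulated siRNA cells and 441 lower under TGF-β. Blunted inductions were mostly those that the siRNA had already raised, 203 of 328, against 146 that were lower under TGF-β. Blunted repressions had most often been lowered before the stimulus, 234 of 365. Over all genes tested, the siRNA moved 53.4% in unstimulated cells and 48.4% under TGF-β. Expressed as differences of CPM rather than of log2 values, 96.7% of the 3678 calls kept their sign, and 123 had the opposite one.

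Among enlarged inductions, Gadd45a had the smallest p. The gene (chr6:67035096-67037457 on mm10, GENCODE M21), which encodes a stress-induced regulator of growth arrest and DNA repair, was at 25.1, 23.7 and 24.9 CPM in unstimulated scramble libraries and 47.6, 51.6 and 51.8 CPM in scramble libraries given TGF-β, against 33.4, 28.8 and 29.9 CPM and 323, 318 and 343 CPM in the corresponding siRNA libraries. The siRNA libraries with TGF-β stood above the other 9, and the induction went from 2.05-fold to 10.7-fold, an interaction of 2.39 ± 0.078 (edgeR adjusted p = 6.3e-15). Spp1 (chr5:104435118-104441050), which encodes osteopontin, a secreted ligand of αV integrins and a marker of modulated smooth muscle, was at 74.6, 73.5 and 80.0 CPM in unstimulated scramble libraries and 242, 206 and 243 CPM in scramble libraries given TGF-β, against 101, 86 and 91 CPM and 1508, 1442 and 1608 CPM in the corresponding siRNA libraries. Its induction went from 3.03-fold to 16.4-fold, and again the siRNA libraries with TGF-β lay above every other library, while the unstimulated siRNA libraries were only slightly above the scramble ones. Igfbp5, which encodes a secreted binding protein of insulin-like growth factors, rose from 4.35, 5.72 and 6.17 CPM to 209, 241 and 195 CPM in siRNA cells and from 1.47, 2.03 and 1.89 CPM to 4.93, 8.98 and 6.94 CPM in scramble cells, with log2 effects of 1.96 in scramble and 5.31 in siRNA cells (interaction 3.34 ± 0.31, edgeR adjusted p = 6.6e-08). The phosphate carrier Slc20a1 was at similar levels in the unstimulated groups, 42.9, 41 and 43.8 CPM with scramble and 37.9, 46.3 and 42.8 CPM with the siRNA. Under TGF-β its libraries separated, at 67.7, 69.4 and 66.1 CPM against 224, 219.5 and 222 CPM (interaction 1.72 ± 0.080).

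Heyl, a target of Notch signalling that encodes a transcriptional repressor, had the largest interaction among the named genes of this class (3.85 ± 0.75, edgeR adjusted p = 0.00059), from 0.412, 0.355 and 0.387 CPM to 3.08, 2.42 and 3.24 CPM in scramble and from 0, 0.10 and 0.363 CPM to 16.5, 18.1 and 17.3 CPM in siRNA cells. Its unstimulated siRNA libraries were at or near 0, so the size of its fold is poorly determined. Nat8l, which encodes the enzyme that makes N-acetylaspartate, was lower in unstimulated siRNA libraries (3.97, 3.21 and 3.68 CPM, against 18.8, 17.8 and 17.6 CPM with scramble) and higher under TGF-β (56.8, 65.3 and 61.5 CPM against 30.4, 35.8 and 37.7 CPM). Rgs5, a regulator of G-protein signalling typical of pericytes and arterial smooth muscle, rose 4.74-fold in scramble and 14.4-fold in siRNA cells (interaction 1.61 ± 0.076).

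**Figure D2:**
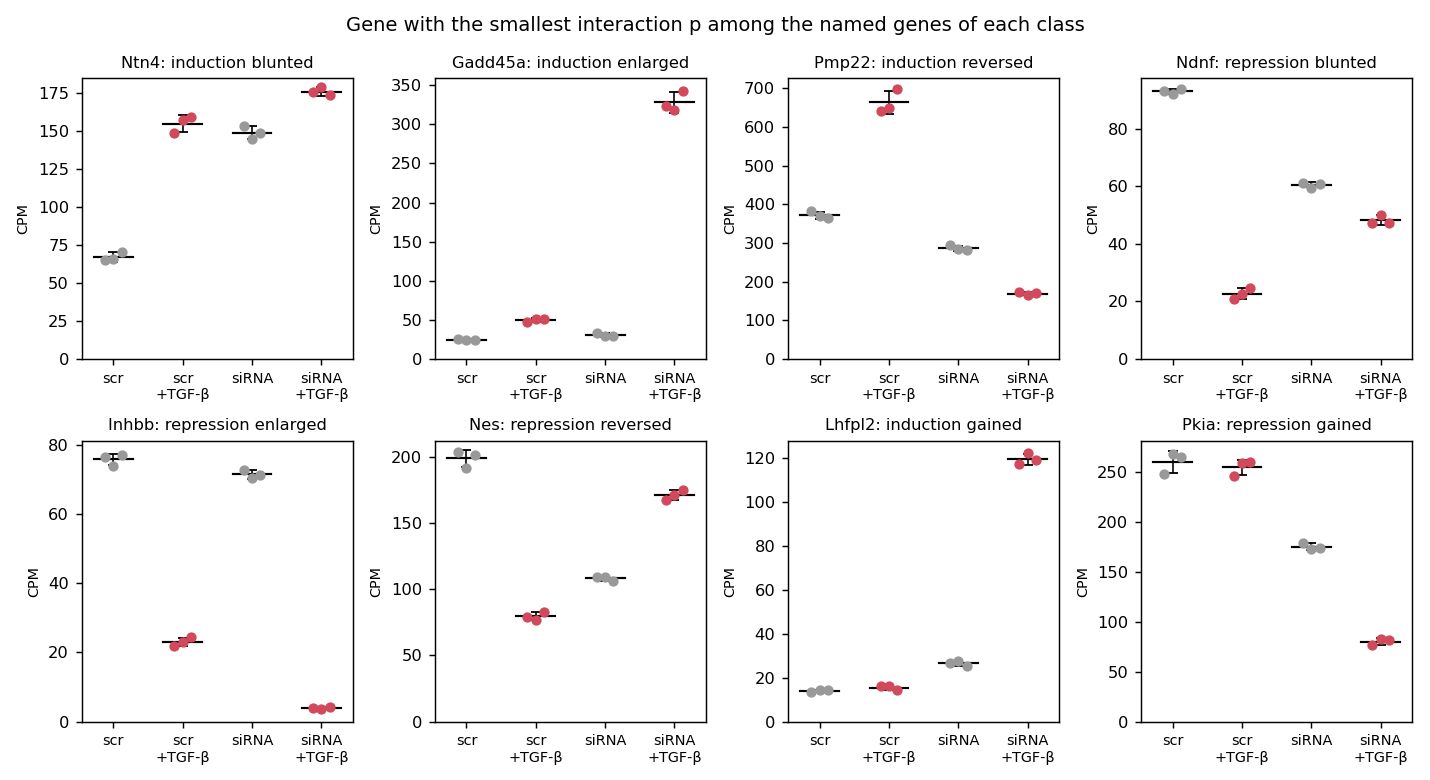
CPM of the named gene with the smallest interaction p in each of the 8 classes, with 1 point per library (grey without and red with TGF-β), a bar at the mean and an error bar of 1 SD over 3 libraries. "scr" is the scramble siRNA and "siRNA" the Itgav siRNA. Gadd45a rises from 30.7 to 328 CPM in siRNA cells and from 24.6 to 50.3 CPM in scramble cells, Pmp22 rises with the scramble siRNA and falls with the Itgav siRNA, and Nes does the opposite.

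Among ligands, receptors and latent binding proteins of TGF-β itself, 10 of the 15 tested were called, beside 23.2% of all genes tested. Of these 10, 6 were positive and 4 negative, and the median interaction of the list was 0.10. Tgfb1, which encodes a ligand of the pathway, was at 17.2, 15.3 and 13.7 CPM in unstimulated scramble libraries and 25.8, 27.8 and 27.5 CPM in scramble libraries given TGF-β, against 28.9, 30.2 and 27.6 CPM and 117, 115 and 119 CPM in the corresponding siRNA libraries. The siRNA libraries were above the scramble libraries in both media, and the induction by added TGF-β went from 1.76-fold to 4.05-fold (interaction 1.21 ± 0.093, edgeR adjusted p = 3.3e-09). Ltbp2, a microfibril protein of the latent TGF-β binding family, had log2 effects of 3.90 in scramble and 4.79 in siRNA cells (interaction 0.89 ± 0.11, edgeR adjusted p = 2.1e-06). Lrrc32, whose product GARP tethers latent TGF-β to the cell surface, fell to 23.4, 28.3 and 26.3 CPM in scramble cells and only to 48.7, 41.5 and 49.7 CPM in siRNA cells, from 64.1, 65.4 and 64 CPM and 71.9, 66.9 and 66.3 CPM. Tgfbr3, the co-receptor betaglycan, fell further with the siRNA, with log2 effects of -1.94 and -2.85 (interaction -0.91 ± 0.15). The signalling receptors had no call, with interactions of 0.16 ± 0.077 for Tgfbr1 (95% interval -0.00 to 0.32) and -0.14 ± 0.073 for Tgfbr2 (-0.29 to 0.01). Both were chosen after their values were seen.

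Feedback inhibitors that TGF-β induces were among the enlarged inductions. Smad7, which blocks the receptors, went from 45, 48.2 and 49.2 to 72.4, 78.8 and 66.5 CPM in scramble and from 42, 42.1 and 43.3 to 81.3, 86.1 and 81.9 CPM in siRNA cells, an interaction of 0.35 ± 0.081 (edgeR adjusted p = 0.0026). Skil, a repressor of SMAD transcription, and Pmepa1, which holds SMADs away from the receptor, had interactions of 0.71 ± 0.10 and 0.41 ± 0.068. Smad3, which carries the signal to the nucleus, was repressed in both and more so in siRNA cells (-0.96 and -1.43, interaction -0.47 ± 0.075). Of the 18 SMADs and feedback inhibitors tested, 6 were positive, 1 negative and 11 not called, with a median of 0.11. Of 33 TGF-β and SMAD targets tested, 17 were positive, 5 negative and 11 not called, and their median effect went from 1.17 in scramble to 1.39 in siRNA cells. The shares called were 38.9% and 66.7%, beside 23.2% of all genes tested.

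Ccn2, a SMAD target that encodes connective tissue growth factor, was lower in siRNA libraries before TGF-β and higher after it, with unstimulated means of 1341 and 1093 CPM and means under TGF-β of 4177 and 4936 CPM in scramble and siRNA cells (0.54 ± 0.052). Fstl3, an extracellular antagonist of activins, rose by a larger factor in siRNA cells, with folds of 6.32 and 12.7. Kank1, an adaptor of cell adhesions on the same list, reversed: TGF-β raised it slightly in scramble cells (0.18) and lowered it in siRNA cells (-0.65, interaction -0.83 ± 0.080). Its rise in scramble cells was not called without scramble and TGF-β replicate 2 (0.13, edgeR adjusted p = 0.079).

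Among the called genes of the ERK, YAP, inflammatory and activin lists were some that encode secreted factors. Hbegf, which encodes a ligand of the EGF receptor, went from 38.5, 35.9 and 36.4 to 129.9, 123 and 133 CPM in scramble and from 24.8, 25.9 and 29.2 to 254, 247 and 260.0 CPM in siRNA cells, folds of 3.47 and 9.52. Its siRNA libraries started below and ended above the scramble ones. Fgf2 (1.09 ± 0.064), the leukaemia inhibitory factor gene Lif (0.77 ± 0.13) and Inhba (0.60 ± 0.089), which encodes the subunit of activin A, were also enlarged. The other activin chain moved the opposite way. Inhbb (chr1:119415465-119422248), which encodes the subunit of activin B, was at 76.4, 74 and 76.9 CPM in unstimulated scramble libraries and 21.8, 22.9 and 24.4 CPM in scramble libraries given TGF-β, against 72.7, 70.3 and 71.3 CPM and 3.95, 3.7 and 4.22 CPM in the corresponding siRNA libraries. The unstimulated groups differed by -0.09 on the log2 scale, and the siRNA libraries with TGF-β were below every other library, a 18-fold fall against 3.29-fold with scramble (interaction -2.45 ± 0.094, edgeR adjusted p = 7.3e-14).

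Matrix genes were among the enlarged inductions. All 17 tested αV ligands and matricellular proteins were called, 14 positive and 3 negative, beside 23.2% of all genes tested. Their median interaction was 0.47, and their median TGF-β effect went from 0.76 to 1.17. Postn, which encodes periostin, a matricellular protein that binds αV integrins, was at 11.8, 15.6 and 13.1 CPM in unstimulated scramble libraries and 147, 159 and 133 CPM in scramble libraries given TGF-β, against 26.7, 26 and 26.2 CPM and 687, 782 and 707 CPM in the corresponding siRNA libraries. The siRNA libraries lay above the scramble libraries in both media, and the log2 effects were 3.44 in scramble and 4.78 in siRNA cells (interaction 1.34 ± 0.13, edgeR adjusted p = 1.2e-07). Fn1, which encodes fibronectin, rose from 8422, 9368 and 9070.0 to 14554, 16119 and 13379 CPM in scramble and from 14028, 14359 and 13169 to 29166, 31008 and 28556 CPM in siRNA cells, with a smaller interaction of 0.38 ± 0.11 (edgeR adjusted p = 0.013). That call was lost without unstimulated siRNA replicate 3 (0.33, edgeR adjusted p = 0.051). Sparc, a collagen-binding matricellular protein, was lower with the siRNA in unstimulated cells, and not called different under TGF-β, at means of 4212 and 2928 CPM without and 6864 and 6566 CPM with TGF-β in scramble and siRNA cells (interaction 0.46 ± 0.040). Ccn3, of the same protein family as Ccn2, was on the opposite side, induced 1.7-fold in scramble cells and not called in siRNA cells (0.76 and 0.15, interaction -0.61 ± 0.091).

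Structural matrix genes were called in both directions. The list counts that follow stand beside 12.2% positive and 11% negative calls over all genes tested. Col1a1, a chain of type I collagen, went from 1433, 1565 and 1525 to 4487, 4877 and 4193 CPM in scramble and from 1362, 1371 and 1329 to 5954, 6319 and 5578 CPM in siRNA cells (0.55 ± 0.081). Eln, which encodes elastin, rose 16.2-fold and 21-fold (0.38 ± 0.069, edgeR adjusted p = 0.00032). Of 22 collagens tested (median 0.26), 8 were positive and 3 negative, the latter being Col14a1 (-1.13 ± 0.12), Col6a2 (-0.52) and Col6a1 (-0.33). Of 21 elastic fibre and crosslinking genes (median 0.14), 8 were positive and 4 negative, the latter led by Efemp1 (-1.13 ± 0.056), which encodes fibulin-3, and by the lysyl oxidase relative Loxl4 (-0.58 ± 0.097). Among small leucine-rich proteoglycans, Prelp went from 412, 417 and 397 to 42.7, 41.6 and 38.5 CPM in siRNA cells and from 437, 466 and 458 to 103, 119.8 and 120.4 CPM with scramble (-1.33 ± 0.084), and Ogn, which encodes osteoglycin, had an interaction of -1.14 ± 0.11. Versican (Vcan, 0.88 ± 0.13) was enlarged upward. Of 15 proteoglycans (median -0.05), 5 were positive and 7 negative. Of 28 endoplasmic reticulum genes (median 0.19), 15 were positive, among them the collagen-modifying enzymes P3h1 (0.68 ± 0.064), Plod1 (0.66 ± 0.071) and P4ha2 (0.57 ± 0.075), 1 was negative, the chaperone Hspa5 (-0.25 ± 0.046), and 12 were not called.

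Integrin chains were divided, with 4 of 18 positive, 4 negative and a median of -0.07, beside 12.2% positive and 11% negative over all genes tested. Itga5, which pairs with β1 to form the main fibronectin receptor, overlapped between the unstimulated groups (89.1, 88.6 and 88 CPM with scramble, 91.3, 89.8 and 84.2 CPM with the siRNA) and separated under TGF-β (183, 186 and 199 against 278, 261 and 288 CPM, interaction 0.55 ± 0.071). The collagen-binding chains Itga2 (1.06 ± 0.12) and Itga11 (0.41 ± 0.083) and their partner Itgb1 (0.25 ± 0.051) were enlarged. Itga7, a laminin-binding chain of muscle, was induced less (0.60 and 0.13, -0.47 ± 0.083). The called Itgb1 also encodes a partner of αV, and of the other β chains that pair with αV, Itgb3, Itgb5 and Itgb8 were not called. Itgb3 was induced 4.93-fold and 5.5-fold (95% interval of the interaction -0.02 to 0.34), Itgb5 2.38-fold and 2.43-fold (-0.09 to 0.14), and Itgb8, with few counts in scramble cells, had an interval of -0.86 to 0.16. Itgb8 passed without unstimulated scramble replicate 2 (-0.63, edgeR adjusted p = 0.048).

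The contractile programme, which TGF-β is known to raise, answered unevenly in siRNA cells. Of 28 contractile genes tested, 14 were called negative, 2 positive and 12 not called, beside 11% negative and 12.2% positive over all genes tested. The median interaction was -0.25, and the median TGF-β effect went from 0.24 to 0.01. The 14 negatives were 5 blunted inductions, 3 reversed inductions and 6 enlarged repressions. In scramble cells TGF-β raised 17 of the 28 and lowered 8, beside 23.4% and 24.8% of all genes tested. Acta2, the smooth muscle actin, was at 1035, 1059.5 and 1099.8 CPM in unstimulated scramble libraries and 4079, 4145 and 4458 CPM in scramble libraries given TGF-β, against 518, 505 and 549.5 CPM and 2031, 2037 and 2120.4 CPM in the corresponding siRNA libraries. The siRNA lowered it by similar amounts in both media (-1.02 and -1.04 on the log2 scale), and the interaction was -0.01 ± 0.058 (edgeR adjusted p = 0.91), with a 95% interval of -0.13 to 0.11. Myh11, the smooth muscle myosin heavy chain and a marker of the mature cell, was at 21.3, 22.8 and 24.7 CPM in unstimulated scramble libraries and 28.8, 31.8 and 31.6 CPM in scramble libraries given TGF-β, against 18.7, 21 and 20.2 CPM and 8.29, 8.06 and 7.54 CPM in the corresponding siRNA libraries. TGF-β raised Myh11 1.34-fold with scramble and lowered it 2.51-fold with the siRNA (interaction -1.75 ± 0.17, edgeR adjusted p = 8.5e-08). Libraries with and without TGF-β did not overlap with either siRNA. The siRNA effect in unstimulated cells was not called (-0.20, edgeR adjusted p = 0.14).

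Lmod1, which nucleates actin filaments in smooth muscle, also reversed, from 121, 122 and 126 to 145, 136 and 144 CPM in scramble and from 88.6, 86 and 96.2 to 53.2, 53.8 and 55 CPM in siRNA cells (-0.95 ± 0.065). Synpo2, an actin-bundling protein of muscle cells, was induced 2.81-fold in scramble and 1.45-fold in siRNA cells (-0.95 ± 0.081). Csrp1, a LIM protein of the smooth muscle cytoskeleton, was higher with the siRNA before TGF-β and lower after it, at 479.7, 475 and 495 and 742, 745 and 806 CPM, and then 353, 346 and 375 and 303, 279 and 297 CPM (-0.95 ± 0.066). Tagln, which encodes the actin-binding protein SM22α, was on the positive side (0.28 ± 0.077, edgeR adjusted p = 0.012), a call lost without unstimulated siRNA replicate 2 (0.19, edgeR adjusted p = 0.054). Of its exon bases, 67.9% overlap a gene on the opposite strand, so its reads are uncertain. Calponin (Cnn1) was not called (-0.44 ± 0.18, edgeR adjusted p = 0.079, 95% interval -0.81 to -0.07), but passed with no filter on low counts, in the 12 libraries alone and without unstimulated siRNA replicate 2 or siRNA and TGF-β replicate 1 (edgeR adjusted p from 0.013 to 0.039). Of the genes of modulated smooth muscle (median 0.40), 9 of 18 were positive and 6 negative, beside 12.2% and 11% of all genes tested. Tnfrsf11b (1.43 ± 0.11), Timp1 (1.21 ± 0.080) and Mgp (0.88 ± 0.085) were enlarged upward. Klf4, a transcription factor that drives modulation, fell further in siRNA cells, from 149.7, 148 and 153 to 44.9, 45.1 and 43.6 CPM against 138, 129 and 136 to 73.1, 78.3 and 73.1 CPM (-0.91 ± 0.066).

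Blunted inductions were led by Ntn4, which encodes netrin-4, a secreted protein of basement membranes, at 65, 65.6 and 70.6 CPM in unstimulated scramble libraries and 149, 157 and 159 CPM in scramble libraries given TGF-β, against 153, 145 and 149 CPM and 175, 179 and 173 CPM in the corresponding siRNA libraries. The unstimulated siRNA libraries were already near the level that scramble cells reached with TGF-β, and the fold went from 2.31 to 1.18 (interaction -0.97 ± 0.065, edgeR adjusted p = 4.1e-10). Trim12a, a member of the tripartite motif family with close paralogues that may share its reads, was at 23.1, 30.0 and 28.8 CPM in unstimulated scramble libraries and 74.2, 69.9 and 75.1 CPM in scramble libraries given TGF-β, against 67.8, 72.3 and 74 CPM and 71.4, 60.5 and 68.8 CPM in the corresponding siRNA libraries. All but the unstimulated scramble libraries lay between 60.5 and 75.1 CPM, and the interaction was -1.52 ± 0.12. Other blunted inductions kept part of their rise. Rasl12, a small GTPase of the Ras family, was induced 4.81-fold and 1.87-fold, Plekhg1, a guanine nucleotide exchange factor, 5.87-fold and 2.29-fold, and Itgbl1, a secreted protein related to integrin β chains, 2.12-fold and 1.31-fold. Their interactions were -1.36 ± 0.14, -1.36 ± 0.17 and -0.69 ± 0.056, and all 3 were higher in siRNA than in scramble cells before TGF-β and lower after it.

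The promoters of Ntn4 and Trim12a are shown because they were the 2 named blunted inductions of smallest p with a window in the table, from 250 bases before to 50 bases after the RefSeq start on GRCm38.p6. In Ntn4 (chr10:93640799-93641098, plus strand) capitals mark the SMAD element CAGAC on either strand, and in Trim12a (chr7:104315446-104315745, minus strand) they mark the interferon-stimulated response element (ISRE) letters TTTCNNTTTC, also searched on both strands.
Ntn4: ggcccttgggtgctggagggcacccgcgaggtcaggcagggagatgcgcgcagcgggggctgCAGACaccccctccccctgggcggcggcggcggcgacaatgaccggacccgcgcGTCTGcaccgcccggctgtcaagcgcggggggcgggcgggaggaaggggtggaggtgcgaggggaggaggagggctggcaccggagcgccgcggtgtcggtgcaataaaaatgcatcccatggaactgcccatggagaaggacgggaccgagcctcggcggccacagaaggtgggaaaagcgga
Trim12a: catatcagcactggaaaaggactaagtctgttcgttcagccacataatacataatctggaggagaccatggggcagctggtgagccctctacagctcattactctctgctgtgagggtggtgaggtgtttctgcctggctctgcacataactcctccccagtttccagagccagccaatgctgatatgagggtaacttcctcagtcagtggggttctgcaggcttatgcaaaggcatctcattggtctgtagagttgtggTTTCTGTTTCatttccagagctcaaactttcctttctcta
The Ntn4 window held 2 SMAD matches, and so did the Trim12a window, where they are left in lower case. These letters occur in 47.7% of the windows of all genes tested and in 49.5% of those of blunted inductions. The Trim12a window, in which this element was looked at after the gene's values were seen, held 1 ISRE match, against 3.1% of the windows of all genes tested and 2.36% of those of blunted inductions. A match describes letters and is no evidence of binding.

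Of the 94 reversed inductions, 83 had no overlap between libraries with and without TGF-β with either siRNA, which follows in part from their being chosen by calls in both. The share over all genes tested is not given here, so this count is a description only. Pmp22 (chr11:63128982-63159547), which encodes a membrane protein best known from the myelin sheath, was at 382, 369.6 and 364 CPM in unstimulated scramble libraries and 642, 649 and 698 CPM in scramble libraries given TGF-β, against 294, 285 and 281 CPM and 172, 164 and 169.9 CPM in the corresponding siRNA libraries. It rose 1.78-fold in scramble and fell 1.7-fold in siRNA cells (interaction -1.60 ± 0.056, edgeR adjusted p = 1.5e-14). Vnn1, the enzyme pantetheinase, went from 104, 109 and 107 to 203, 203 and 213 CPM in scramble and from 154, 144 and 159.6 to 116, 109 and 110.0 CPM in siRNA cells (-1.40 ± 0.079), and Etv1, an ETS transcription factor, from 13.1, 13.2 and 13.4 to 25.8, 25.3 and 24.7 CPM and from 16.1, 15 and 16.7 to 10.7, 10.7 and 10.9 CPM (-1.50 ± 0.097). Etv1 fell in siRNA cells from a level above that of unstimulated scramble cells to one below it. Samhd1, an enzyme that degrades nucleotides and restricts viruses, went from 172, 187 and 197 to 229, 221 and 229 CPM and from 249, 231 and 269.9 to 85.2, 83.5 and 85 CPM (-1.85 ± 0.11). Sp110 (-2.76 ± 0.23), Cd274 (-2.51 ± 0.33), which encodes the immune checkpoint ligand PD-L1, and Ube2l6 (-1.90 ± 0.16), which conjugates ISG15, are interferon-inducible genes that had been raised by the siRNA alone, by 3.28, 4.23 and 2.54 on the log2 scale. Cd274 went from only 1.33, 1.32 and 1.55 CPM to 2.9, 2.74 and 3.12 CPM in scramble libraries, so its rise there was between low values. In siRNA libraries it went from 30.7, 23.8 and 24.5 CPM to 6.75, 12.5 and 9.57 CPM. Sp110 was at 2.93, 5.28 and 4.75 CPM and Ube2l6 at 17.9, 27.6 and 28.1 CPM in unstimulated scramble libraries, of which replicate 1 was the lowest for both. Without it the rise in scramble cells was no longer called, at 0.63 before and 0.41 after its removal for Sp110 (edgeR adjusted p = 0.060) and 0.43 and 0.24 for Ube2l6 (edgeR adjusted p = 0.053), while their interactions of -2.54 and -1.72 stayed called.

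Of the 102 reversed repressions, 86 had no such overlap, with the same limits. Nes (chr3:87971078-87980451), which encodes the intermediate filament protein nestin, was at 204, 192 and 201 CPM in unstimulated scramble libraries and 79.2, 76.9 and 82.7 CPM in scramble libraries given TGF-β, against 109, 109 and 106 CPM and 167, 171 and 175 CPM in the corresponding siRNA libraries. It fell 2.5-fold in scramble and rose 1.58-fold in siRNA cells (interaction 1.98 ± 0.062, edgeR adjusted p = 4.9e-15), ending below the unstimulated scramble level. Plxnd1, a semaphorin receptor of vessels, fell from 24.3, 21.3 and 22.5 to 11.5, 13 and 15 CPM in scramble and rose from 34, 29.5 and 31.2 to 84.4, 89.3 and 82.9 CPM in siRNA cells (2.23 ± 0.14). Gfra1, a receptor of the neurotrophic factor GDNF, fell 2.02-fold and rose 3.76-fold (2.92 ± 0.19). Htra3, a secreted serine protease, fell 2.45-fold and rose 1.54-fold (1.92 ± 0.11). The apoptosis gene Pmaip1, which encodes NOXA, barely fell in scramble cells (126, 132 and 125 to 118, 117 and 115 CPM), and the siRNA had brought it to 27.1, 27.7 and 25.2 CPM, from which TGF-β took it to 89.1, 90.4 and 93.5 CPM (1.90 ± 0.078). The small fall in scramble cells (-0.13) was not called on leaving out any one of the 12 libraries (edgeR adjusted p from 0.060 to 0.19). Adra2a, an adrenergic receptor, had the largest interaction of the named genes (4.86 ± 0.67), at 2.06, 3.04 and 2.35 CPM in siRNA libraries with TGF-β and below these elsewhere. The other 9 libraries were at or under 1.22 CPM, so the size of its fold is poorly determined, and its fall in scramble cells was not called without unstimulated replicate 1 or 2 or TGF-β replicate 2 or 3 of the scramble groups (edgeR adjusted p from 0.0504 to 0.102).

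Blunted repressions were led by Ndnf, which encodes a secreted glycoprotein of vascular and neural tissue, at 93.2, 92.1 and 93.8 CPM in unstimulated scramble libraries and 20.9, 22.7 and 24.7 CPM in scramble libraries given TGF-β, against 61.1, 59.6 and 61 CPM and 47.3, 50.2 and 47.2 CPM in the corresponding siRNA libraries. The fall was 4.09-fold in scramble and 1.26-fold in siRNA cells, which started lower and ended higher (interaction 1.70 ± 0.10, edgeR adjusted p = 7.9e-11). Npnt, which encodes nephronectin, a matrix ligand of integrin α8β1, fell with TGF-β in scramble cells (270.3, 275 and 277 to 143, 145 and 136 CPM), and in siRNA cells it stayed near that lower level throughout (134, 134 and 129.9 and 137, 130.3 and 136 CPM, 0.97 ± 0.064). Kirrel3, an adhesion protein of the nephrin family, was repressed in scramble cells and less in siRNA cells (-1.66 and -0.43), while the zinc and manganese carrier Slc39a8 overlapped between the unstimulated groups and was higher in siRNA cells under TGF-β (1.11 ± 0.12). Bambi, a decoy receptor that dampens TGF-β signalling, had log2 effects of -0.67 in scramble and 0.27 in siRNA cells (interaction 0.94 ± 0.20, edgeR adjusted p = 0.0012).

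Cell division genes were among the blunted repressions. All 30 replication and G1/S genes and all 30 mitotic genes tested had an interaction above 0, with medians of 0.48 and 0.48. Of these genes 18 and 21 were called, beside 23.2% of all genes tested. None was called negative by edgeR or by DESeq2, and none had a negative interaction at an unadjusted p under 0.05. Their median TGF-β effects went from -1.05 to -0.53 and from -1.31 to -0.78, toward a smaller repression in siRNA cells. Mki67, a marker of cycling cells, fell from 158, 168 and 171 to 61.5, 64 and 57.4 CPM in scramble and from 113, 134 and 108 to 61.7, 59.1 and 54.9 CPM in siRNA cells. The siRNA libraries were lower before TGF-β and overlapped the scramble ones after it (interaction 0.43 ± 0.099, edgeR adjusted p = 0.0027). The mitotic cyclin Ccnb1 (0.63 ± 0.099), the ubiquitin-conjugating enzyme Ube2c (0.71 ± 0.10), the hyaluronan receptor Hmmr (0.70 ± 0.11) and the helicase subunit Mcm5 (0.81 ± 0.11) were likewise blunted. Across these lists the siRNA effect had a median of -0.42 and -0.48 in unstimulated cells and 0.13 and 0.02 under TGF-β. Tyms, thymidylate synthase, was placed among gained inductions (-0.10 and 0.64). Cyclin D1 (Ccnd1), which drives entry into the cycle, went the other way, from 1371, 1406 and 1332 to 324, 329 and 319.9 CPM in siRNA and from 2322, 2326 and 2339 to 873, 852 and 820.0 CPM in scramble cells (-0.62 ± 0.050).

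Enlarged repressions included the vessel-destabilising angiopoietin Angpt2 (chr8:18690263-18741562), at 120.1, 127 and 126 CPM in unstimulated scramble libraries and 13.9, 14.8 and 16.4 CPM in scramble libraries given TGF-β, against 338, 313 and 309 CPM and 8.29, 8.28 and 7.65 CPM in the corresponding siRNA libraries. The siRNA raised it before TGF-β, and with TGF-β it fell below the scramble libraries, so that the fall went from 8.28-fold to 39.6-fold (interaction -2.26 ± 0.088, edgeR adjusted p = 7.6e-14). Gpm6a, a membrane glycoprotein, fell from 234, 236 and 235 to 46.5, 45.4 and 46.6 CPM in scramble and from 117, 117 and 119 to 6.12, 7.45 and 6.52 CPM in siRNA cells (-1.78 ± 0.075). The retinaldehyde dehydrogenase Aldh1a1 (-0.63 ± 0.051) and the glutathione transferase Gstm1 (-1.0 ± 0.082) belonged to the NRF2 and glutathione list, of which 11 of 21 genes were negative and none positive by edgeR (DESeq2 called 1 positive, and 2 were positive at an unadjusted p under 0.05), with a median of -0.26. Over all genes tested, 11% were negative. On the NRF2 and glutathione list, Nqo1 was a blunted induction (1.41 and 0.55) and the cystine carrier Slc7a11 a gained repression (0.18 and -1.37).

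The interferon response had the lowest median interaction of the 28 lists. All 44 genes tested were called higher in unstimulated siRNA cells, by a median of 3.97 on the log2 scale, beside 25.9% of all genes. All 44 had an interaction below 0, with a median of -1.45, and 28 were called, beside 23.2% of all genes tested. Of the 28, 23 were enlarged and 5 gained repressions. None of the 44 was positive by edgeR, by DESeq2 or at an unadjusted p under 0.05. TGF-β lowered 33 of them in scramble and 43 in siRNA cells, with medians of -1.07 and -2.81. Over all genes tested it lowered 24.8% and 29.6%. Ifit3, an interferon-induced protein with antiviral function and a near-identical copy that may share its reads, was at 52.2, 93 and 88.7 CPM in unstimulated scramble libraries and 30.3, 26.2 and 35.5 CPM in scramble libraries given TGF-β, against 3075, 2866 and 3300.2 CPM and 225, 279 and 227 CPM in the corresponding siRNA libraries. It fell 2.54-fold with scramble and 12.7-fold with the siRNA (interaction -2.32 ± 0.25, edgeR adjusted p = 4.5e-07), and the siRNA libraries with TGF-β still lay above both scramble groups. Under TGF-β, 43 of the 44 were called higher in siRNA than in scramble cells, by a median of 2.63. Of all genes tested, 24.1% were called higher there. Rsad2, which encodes the antiviral enzyme viperin, went from 275, 185 and 212 to 8.35, 16.6 and 6.58 CPM in siRNA cells and was not called in scramble cells, where it was low (1.15, 1.83 and 1.65 and 0.812, 0.699 and 1.39 CPM). The transcription factor Stat2 (-1.22 ± 0.19), the ubiquitin ligase Herc6 (-2.08 ± 0.20) and Ifit2 (-2.13 ± 0.26) were enlarged repressions.

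One library bears on these values: summed over the list, unstimulated scramble replicate 1 held 832 CPM, against 1545 and 1443 CPM in the other 2. Without it, 29 of the genes were called, and none was positive. The summed level was 711 to 768 CPM in scramble libraries with TGF-β, 13540 to 15350 CPM in unstimulated siRNA libraries and 2723 to 2786 CPM in siRNA libraries with TGF-β. Of the 16 members without a call, Isg15, chosen after its values were seen, was at 8.25, 38 and 35.4 CPM in unstimulated scramble libraries. The weakest named calls were those of the guanylate-binding proteins Gbp5 (-2.88 ± 1.0) and Gbp6 (-2.55 ± 0.84), which have close paralogues. Gbp5 was lost on leaving out any library but siRNA and TGF-β replicate 2 (edgeR adjusted p from 0.051 to 0.15) and Gbp6 on leaving out any TGF-β-treated scramble library (0.056 to 0.18).

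Promoter windows of 2 named genes of this list are printed, the 2 of smallest p with a RefSeq window, to show the element that is common in it. Capitals mark the ISRE letters TTTCNNTTTC in Ifit3 (chr19:34583279-34583578, plus strand), and Herc6 (chr6:57580742-57581041, plus strand) held none within its window.
Ifit3: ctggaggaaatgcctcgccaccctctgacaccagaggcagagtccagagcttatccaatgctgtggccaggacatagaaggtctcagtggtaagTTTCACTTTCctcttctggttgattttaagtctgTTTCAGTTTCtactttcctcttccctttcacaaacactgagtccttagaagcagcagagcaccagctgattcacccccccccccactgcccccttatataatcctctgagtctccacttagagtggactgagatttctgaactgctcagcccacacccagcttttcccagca
Herc6: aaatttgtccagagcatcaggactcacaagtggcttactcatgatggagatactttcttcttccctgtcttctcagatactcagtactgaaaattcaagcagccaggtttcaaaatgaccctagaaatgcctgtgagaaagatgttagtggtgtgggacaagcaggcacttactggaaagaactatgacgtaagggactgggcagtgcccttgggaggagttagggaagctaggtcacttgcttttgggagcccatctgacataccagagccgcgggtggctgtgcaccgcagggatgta
Of the interferon genes tested, 31 had 36 windows in the RefSeq table, and 18 of these (50%) held an ISRE match on either strand. The share was 8.15% of 810 windows for enlarged repressions as a class, 27.8% of 18 windows for antigen presentation and 3.1% of 14331 windows for all genes tested. The Ifit3 window held 2 matches, the first starting 156 bases before the RefSeq start. No match says only that these letters are absent from the window.

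Class I antigen presentation genes were on the same side. All 20 genes tested had an interaction below 0, and 18 were called, beside 23.2% of all genes tested. None of the 20 was positive by edgeR, by DESeq2 or at an unadjusted p under 0.05. The median was -1.19, and the TGF-β effect went from -0.51 to -1.70. B2m, the light chain of class I molecules, was at 575, 642 and 627 CPM in unstimulated scramble libraries and 511, 511 and 519 CPM in scramble libraries given TGF-β, against 1607, 1455 and 1621 CPM and 685, 675 and 681 CPM in the corresponding siRNA libraries. The siRNA libraries were above the scramble ones in both media, but by less with TGF-β (1.34 and 0.40 on the log2 scale, interaction -0.94 ± 0.097, edgeR adjusted p = 2.4e-07). Tap1, which carries peptides to these molecules, had an interaction of -1.46 ± 0.15, and the proteasome activator Psme2 one of -0.83 ± 0.089. Class I heavy chain genes are near-identical copies, so their values, such as that of H2-T22 (-1.29 ± 0.13), are uncertain. Vcam1, an adhesion molecule for leukocytes, was likewise raised by the siRNA and then lowered more (921 to 282 CPM, against 219 to 111 CPM, -0.73 ± 0.067), while Ptgs2, which encodes the prostaglandin enzyme COX-2, was an enlarged induction (0.81 ± 0.080). Of 24 inflammatory genes (median -0.33), 4 were positive and 7 negative, beside 12.2% and 11% of all genes tested. Macrophage and lymphocyte markers were low in all 4 groups, as given above.

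**Figure D3:**
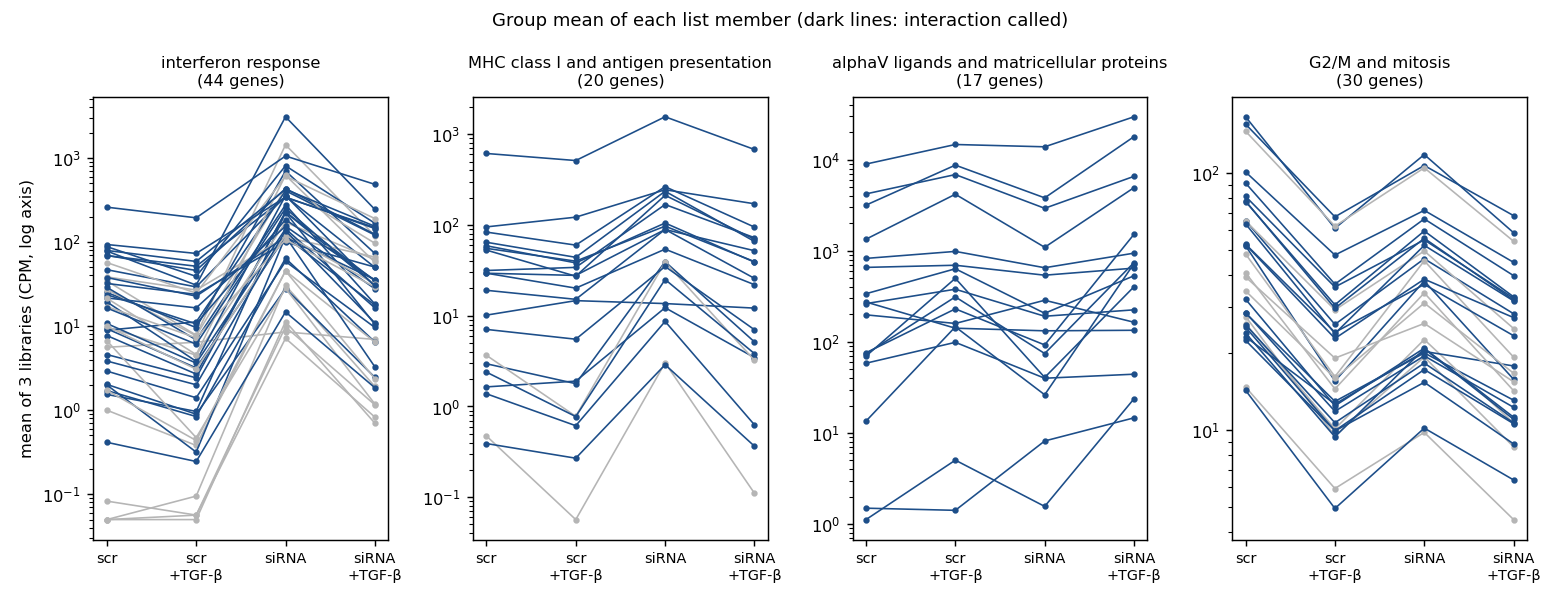
Mean CPM over 3 libraries on log axes for each tested gene of 4 lists in the 4 groups ("scr", scramble siRNA; "siRNA", Itgav siRNA), with dark lines for genes called for the interaction. Means under 0.05 CPM are drawn at 0.05. All 44 interferon genes and 19 of 20 antigen presentation genes are highest in unstimulated siRNA cells, the αV ligands and matricellular proteins are mostly highest in one of the TGF-β groups, and the median mitotic gene falls with either siRNA, by less with that against Itgav.

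Some genes were called for a TGF-β effect with the siRNA and not without it, and the interaction tests that difference. Lhfpl2, a tetraspan membrane protein, was at 13.7, 14.2 and 14.2 CPM in unstimulated scramble libraries and 16.1, 16 and 14.2 CPM in scramble libraries given TGF-β, against 26.6, 27.7 and 25.4 CPM and 117, 122 and 119 CPM in the corresponding siRNA libraries. TGF-β had no called effect in scramble cells (0.14 on the log2 scale) and a 4.49-fold rise in siRNA cells (interaction 2.02 ± 0.087, edgeR adjusted p = 3.6e-13). Lgr6, a receptor for R-spondins, rose from 3.54, 3.97 and 4.61 to 36.6, 32.2 and 32.2 CPM in siRNA cells and was at 3.62, 4.01 and 3.63 and 3.13, 3.87 and 4.05 CPM in scramble cells (3.08 ± 0.20). Serinc5, a multipass membrane protein, had been lowered by the siRNA to 31.2, 29.6 and 31.6 CPM, and TGF-β took it to 89.9, 93.4 and 92.1 CPM, above its scramble levels of 68.2, 69.8 and 72.4 and 68.2, 72 and 60.7 CPM. Among gained repressions, Pkia, an inhibitor of protein kinase A, was at 247, 268 and 264 CPM in unstimulated scramble libraries and 246, 258 and 259 CPM in scramble libraries given TGF-β, against 179, 173 and 173 CPM and 76.4, 82.5 and 81.6 CPM in the corresponding siRNA libraries. It was lower with the siRNA in both media and fell 2.18-fold with TGF-β there (-1.10 ± 0.068). Apod, which encodes apolipoprotein D, had been raised to 23.7, 25.2 and 32.7 CPM by the siRNA and fell to 1.32, 1.88 and 1.71 CPM, close to its scramble means of 1.73 and 0.993 CPM (-3.26 ± 0.43). The chemokine Cxcl12 fell from 5609 to 4349 CPM in siRNA cells, against means of 3590.4 and 3712 CPM in scramble cells (-0.42 ± 0.036).

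The remaining lists are given by their counts beside the 23.2% called over all genes. Of 26 cholesterol and fatty acid genes, 12 were positive, among them the sterol demethylase Cyp51 (0.65 ± 0.056), and none was negative by edgeR or DESeq2 (0 at an unadjusted p under 0.05). Their levels were lower with the siRNA in both media, by medians of -0.59 and -0.56. Of 24 hypoxia and glycolysis genes, 9 were positive and 4 negative, with the glycolytic regulator Pfkfb3 (0.78 ± 0.079) enlarged and the glucose carrier Slc2a1 (0.61 ± 0.091) gained. Targets of YAP and TEAD, coactivators tied to cell tension, were divided, with 6 positive and 10 negative of 26. Ankrd1 rose 1.75-fold in scramble and 3.97-fold in siRNA cells, from means of 563 and 149.9 CPM (1.18 ± 0.066), and Igfbp3 fell further (-0.68 ± 0.070). Of 31 focal adhesion and linker genes 6 were positive, among them the scaffold Nedd9 (0.66 ± 0.070) and kindlin-2 (Fermt2, 0.45 ± 0.057), and 10 negative, among them filamin C (Flnc, -0.55 ± 0.057) and tensin-1 (Tns1, -0.40 ± 0.049). Of 25 proteases and inhibitors 9 were positive and 2 negative, of 31 ERK targets 8 and 6, of 26 BMP, activin and ID genes 9 and 5, of 25 amino acid supply genes 2 and 8, of 21 p53 targets 2 and 6, of 15 osteochondrogenic genes 7 and 3, and of 30 channel, calcium and vasoactive receptor genes 5 and 6. Medians were 0.16 for the cholesterol list, 0.18 for hypoxia, -0.11 for YAP targets, 0.01 for focal adhesion, 0.17 for proteases, 0.04 for ERK targets, 0.17 for BMP genes, -0.14 for amino acid supply, -0.16 for p53 targets, 0.44 for osteochondrogenic genes and -0.09 for channels, against 0.0025 for all genes tested.

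**Figure D4:**
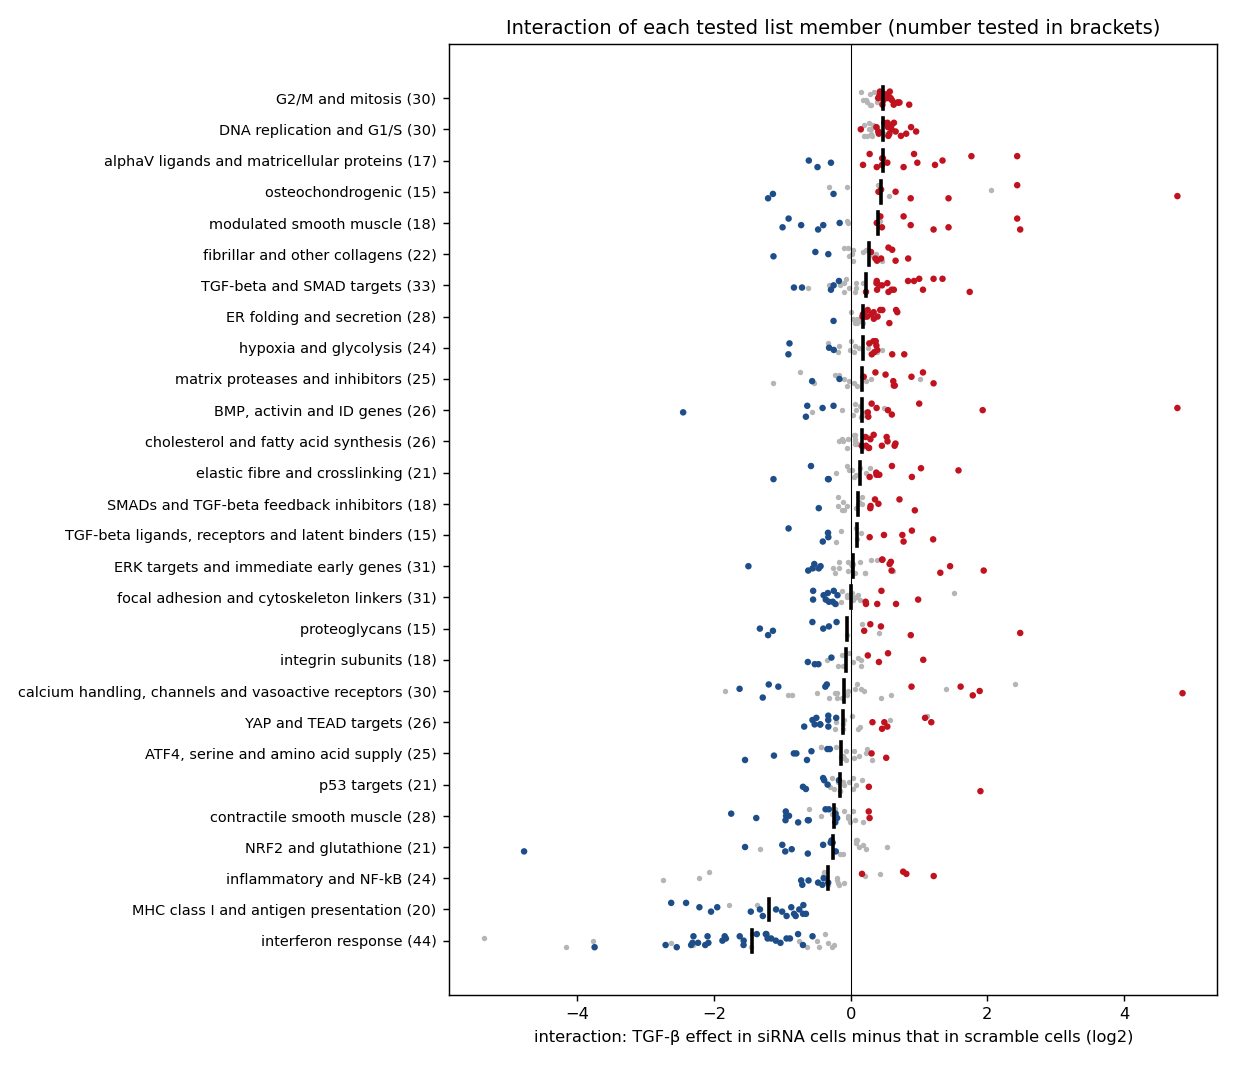
Interaction (log2) of every tested member of the 28 lists, with the number tested in brackets, red for positive and blue for negative calls, grey for no call and a black bar at the median. The medians run from -1.45 for the interferon response to 0.48 for the 2 cell division lists, and the integrin, YAP and focal adhesion lists hold calls on both sides of 0.

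Because the sources used here do not give the strand used for counting, genes that overlap another on the opposite strand are uncertain. Of the 158 named genes with a GENCODE M21 entry, 11 have over 10% of their exon bases in such an overlap: Tagln, Fstl3, H2-T22, Ccn2, Ccnd1, Ube2c, Gadd45a, Cd274, Slc20a1, Npr1 and Abcb10.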

How the data were processed

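RNA sequencing libraries of mouse aortic smooth muscle cells were analysed from the gene table that the authors deposited, which holds estimated counts (expected counts, not normalised) per gene and library. Per the submitters' processing notes, HISAT2 2.2.1, StringTie 2.1.6 and mm10 were used. The sources used here name neither the annotation nor the strand setting. Of the deposited values above 0, 76.2% were whole (tolerance 1e-06), and the counts were rounded before testing. Library totals were 18139857 to 21592916, and genes of at least 5 CPM had a median standard error of 0.105 for the interaction.

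The 18 libraries were fitted in edgeR 4.0.16 (R 4.3.3) with TMM factors of 0.925 to 1.07, 1 mean per group, 12 residual degrees of freedom and quasi-likelihood tests. The filterByExpr function (minimum count 10) kept 15832 genes and at least 99.90% of each library's counts. Benjamini-Hochberg adjustment was made over all genes of a comparison. A standard error is the log2 change divided by the square root of F. A blunted response was called in scramble cells with an interaction of the opposite sign and no called reversal, an enlarged one had an interaction of the same sign, a reversed one was called with opposite signs in the 2 siRNA groups, and a gained one was called only in siRNA cells. The fit was tested on simulated data.

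The members and lists were chosen with earlier results of these data known. The naming rule takes, from each of the 8 classes, the 3 largest interactions and the 3 smallest p at a mean of at least 5 CPM, a fixed panel, and up to 4 genes of smallest p from each of 28 lists. Promoter windows are from RefSeq (GRCm38.p6), and 11202 of the 15832 genes matched. Alternatives were DESeq2 1.42.0, its size factors, no filter, a mean of at least 1 CPM, the 12 libraries alone, gene counts summed from transcripts, a replicate block and leaving out each library. The fixed panel's Itgb6 did not pass the filter. Some named genes are not reported here. The deposited PDGF-BB columns were used only for the spread.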

Additional observations from a re-analysis of the deposited data

Results flagged for a closer look

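For 18 named genes, both TGF-β effects were called with opposite signs and the libraries with TGF-β did not overlap those without it with either siRNA. Their interactions and the lack of overlap are a description, since calls of the interaction and of both TGF-β effects were how reversed genes were chosen. The scramble effect of 5 of them, Sp110, Ube2l6, Kank1, Pmaip1 and Adra2a, was not called on leaving out at least 1 library, as given above. Inductions turned into falls had interactions of -2.76 for Sp110, -2.51 for Cd274, -1.90 for Ube2l6, -1.85 for Samhd1, -1.75 for Myh11, -1.60 for Pmp22, -1.50 for Etv1, -1.40 for Vnn1, -0.95 for Lmod1 and -0.83 for Kank1. Repressions turned into rises had interactions of 4.86 for Adra2a, 2.92 for Gfra1, 2.23 for Plxnd1, 1.98 for Nes, 1.92 for Htra3, 1.90 for Pmaip1, 0.59 for Hmga2 and 0.38 for Ldha.

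The smallest of these reversals joined weak effects of opposite sign. Hmga2, a chromatin protein of proliferating cells, went from 101, 103 and 98.2 to 85.1, 82 and 89.6 CPM in scramble and from 103, 115 and 105 to 144, 135 and 134 CPM in siRNA cells. Ldha, which encodes lactate dehydrogenase A, went from 425, 415 and 423 to 361, 356 and 399 CPM and from 269, 268 and 264 to 307, 298 and 314 CPM.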

How the results depend on the processing

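The count of interaction calls ran from 3044 to 3952 over all alternatives, every called gene shared with the reported fit kept its sign, and no count over all genes or by class moved by more than 1.5 times. DESeq2 called 3610. Leaving out 1 library gave 3044 to 3652 calls, with the lowest count without siRNA and TGF-β replicate 3. These fits kept 79.9% to 88.4% of the reported calls, so the net counts hide some change of members. After removal of group means, same-numbered libraries correlated at -0.192 to 0.146 and other pairs at -0.243 to 0.209. No pairing by replicate number was seen, but 3 libraries per group make this a weak check. A block for the replicate number gave 3893 calls, 3637 of them shared. The named genes whose interaction call changed are Gbp5, Gbp6, Tagln, Fn1, Cnn1 and Itgb8, as given above. Small list counts moved by more than 1.5 times under some alternatives: positive ERK targets from 8 to 5 without scramble and TGF-β replicate 1, negative TGF-β targets from 5 to 3 without unstimulated scramble replicate 3, positive inflammatory genes from 4 to 2 without unstimulated scramble replicate 2 or 3 or unstimulated siRNA replicate 2, and counts of 2 or fewer by 1 gene. Depth limits genes of few counts, for which sizes are poorly determined. The causes were not tested.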

Other observations

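Some list members outside the naming rule are given here, chosen after their values were seen, and some of them had low counts. Bmp2, which encodes a bone morphogenetic protein, was at 0.275, 0.406 and 0.29 CPM in unstimulated and 0, 0.161 and 0 CPM in TGF-β-treated scramble libraries, and at 0.429, 0.603 and 0.622 and 3.49, 2.43 and 2.89 CPM in siRNA libraries (edgeR adjusted p of the interaction = 0.00010). Its scramble libraries with TGF-β held too few counts for a fold to be given. Chrdl1, which encodes a secreted antagonist of bone morphogenetic proteins, had log2 effects of -0.94 in scramble and 0.99 in siRNA cells (interaction 1.93 ± 0.45, edgeR adjusted p = 0.0030). Acan, which encodes aggrecan, a proteoglycan of cartilage, rose from 2.11, 2.44 and 1.36 to 110.1, 114 and 98.5 CPM in scramble and from 1.72, 1.46 and 3.89 to 53.5, 60.8 and 53 CPM in siRNA cells, so that its induction was smaller with the siRNA (-1.21 ± 0.32, edgeR adjusted p = 0.0076) while Col11a1, a collagen chain of cartilage, had a larger one (0.66 ± 0.091). Id2, a target of BMP signalling, fell from 102, 99.4 and 98.8 to 31.1, 29.3 and 27.5 CPM and from 56.8, 58.1 and 65 to 10.4, 11.5 and 11.9 CPM (-0.64 ± 0.11). The myosin light chain kinase gene Mylk was higher with the siRNA before TGF-β and lower after it, at 32.8, 34.2 and 35.4 and 43.7, 44.3 and 47.5 CPM, and then 20.2, 20.9 and 19.7 and 17.1, 14.6 and 15.5 CPM (-0.77 ± 0.096).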
